A study of Homo sapiens with 12 samples.

Results

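The genes described here are 10 genes of the YAP and TEAD pathway, taken by symbol from the 41878 gene rows of an RNA sequencing count table: CCN1, CCN2, ANKRD1, AMOTL2, AJUBA, LATS2, CRIM1, TEAD1, YAP1 and WWTR1. Each symbol had 1 row, and all 10 rows passed the filter on low counts that left 18030 genes for testing. YAP1 and WWTR1 (TAZ) are transcriptional coactivators that bind no DNA themselves. They act through TEAD factors such as TEAD1, and the kinases LATS1 and LATS2 hold them in the cytoplasm by phosphorylation. Lipids carried by serum, among them lysophosphatidic acid and sphingosine 1-phosphate, act through G protein-coupled receptors to release YAP from this inhibition, and CCN1, CCN2 and ANKRD1 are the targets most often read to follow it.

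The cells were HEK293T, an easily transfected human embryonic kidney line. They received 1 µg of an empty control vector or of a plasmid that expresses TRPML3, the channel protein of endosomes and lysosomes that MCOLN3 encodes. They were then kept in 10% serum (fed) or without serum (0%) for 4 h (starved). This gave 4 groups of 3 libraries: vector fed, vector starved, TRPML3 fed and TRPML3 starved. All groups were transfected with the same reagent and differ only in plasmid and serum, per the labels. The fraction of cells that took up plasmid was not analysed here, so each value is a mean over transfected and other cells, and fewer cells with an RNA cannot be told apart from less RNA per cell. The labels call the replicates biological but do not say which of them shared a culture or a day.

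Libraries held 33101540 to 43700547 counts. Levels are given as CPM, the usual depth-scaled counts, with TMM factors applied to the library totals, and 3 counts, taken as the floor of detection, correspond to at most 0.0978 CPM. MCOLN3, the check of the labels, ran from 9.31 to 18.4 CPM in the 6 vector libraries and from 4929 to 58223 CPM in the 6 TRPML3 libraries, which did not overlap. In replicates 1, 2 and 3 it had 6211, 4929 and 39972 CPM in TRPML3 fed and 41362, 58223 and 16896 CPM in TRPML3 starved libraries. Its level thus differed with serum state and replicate. The part of this in the starvation contrast of TRPML3 cells, in the TRPML3 contrasts and in the interaction was not tested. The 7 genes looked at as marks of HEK293 cells were all detected in every library, including the neurofilament gene NEFM (91.9 to 176 CPM). Of the marks of other cells, the blood gene PTPRC and the endothelial gene CDH5 had a median of 0 CPM, while of the fibroblast marks the collagen genes COL3A1 and COL1A1 had 14.8 to 21.7 and 0.225 to 20.6 CPM and DCN had 0.172 to 0.577 CPM. The share of counts from the mitochondrial genome went with the replicate number, at 2.81 to 4.40% in the libraries numbered 1, 1.05 to 2.52% in those numbered 2 and 4.83 to 5.70% in those numbered 3. The labels name no batch.

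TEAD factors bind the letters GGAATG, or CATTCC on the other strand. These were searched for on both strands in the 250 bases before the transcription start in RefSeq's promoter table (GRCh38.p14). The table matched 7 of the 10 genes with 10 windows, and CCN1, CRIM1 and TEAD1 were not matched. Of the 10 windows, 5 held a match, 1 each for AMOTL2, AJUBA, CCN2, ANKRD1 and YAP1, against 11.9% of all 35116 windows of that length. The windows of WWTR1 and LATS2, and the other window each of AMOTL2 and AJUBA, held none. Shown next are 4 of the 5 windows with a match, 5′ to 3′ on the strand of the gene and ending just before the start, with matches in capitals. They lie at chr6:131951373-131951622 (CCN2, minus strand), chr10:90921088-90921337 (ANKRD1, minus strand), chr3:134374448-134374697 (AMOTL2, minus strand, 1 of its 2 windows) and chr11:102110197-102110446 (YAP1, plus strand).
CCN2: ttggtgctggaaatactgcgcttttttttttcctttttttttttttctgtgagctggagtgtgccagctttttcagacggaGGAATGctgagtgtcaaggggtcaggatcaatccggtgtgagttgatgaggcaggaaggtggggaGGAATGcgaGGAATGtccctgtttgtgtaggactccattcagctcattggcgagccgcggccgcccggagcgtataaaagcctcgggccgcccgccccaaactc
ANKRD1: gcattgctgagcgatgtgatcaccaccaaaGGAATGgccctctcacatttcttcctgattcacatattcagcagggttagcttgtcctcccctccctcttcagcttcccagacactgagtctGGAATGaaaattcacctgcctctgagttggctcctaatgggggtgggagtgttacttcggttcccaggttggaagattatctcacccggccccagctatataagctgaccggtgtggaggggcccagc
AMOTL2: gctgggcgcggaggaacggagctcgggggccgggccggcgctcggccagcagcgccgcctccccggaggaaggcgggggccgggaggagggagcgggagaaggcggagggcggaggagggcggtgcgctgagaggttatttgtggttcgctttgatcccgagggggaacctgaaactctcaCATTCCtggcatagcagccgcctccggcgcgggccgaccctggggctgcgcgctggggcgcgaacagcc
YAP1: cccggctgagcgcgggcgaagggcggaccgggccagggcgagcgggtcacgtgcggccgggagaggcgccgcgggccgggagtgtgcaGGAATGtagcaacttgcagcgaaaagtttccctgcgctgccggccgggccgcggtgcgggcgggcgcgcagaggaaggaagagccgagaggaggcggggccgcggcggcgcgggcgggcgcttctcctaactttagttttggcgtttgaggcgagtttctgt

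The CCN2 window held 3 copies of GGAATG, whose first bases lay 169, 104 and 95 bases before the start. Windows with 3 or more matches were 29 of 35116 (0.0826%). ANKRD1 held 2 copies, beginning 220 and 128 bases before the start, and 0.94% of windows held 2 or more. The match of AMOTL2 was to CATTCC, 69 bases before the start, and that of YAP1 to GGAATG, 162 bases before it. A match of letters is a description and does not show binding.

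The RNA levels of the 10 genes per length were compared over the 12 libraries as CPM per kilobase of annotated exon (GENCODE 29, GRCh38). CCN1, a secreted matrix protein, stood highest with a median of 39.2 CPM per kilobase and lay above YAP1, the next gene, in 12 of 12 libraries. YAP1 had 9.27, ANKRD1 7.88, AMOTL2 6.04, TEAD1 5.86 and WWTR1 4.99 CPM per kilobase. Several neighbours in this order changed places between libraries: YAP1 exceeded ANKRD1 in 8 of 12 libraries, AMOTL2 exceeded TEAD1 in 5, and TEAD1 exceeded WWTR1 in 7. LATS2 had 3.62, AJUBA 2.65 and CRIM1 2.45 CPM per kilobase, and CCN2 had a median of 0. A protein-coding gene without a row among the counts, AL132780.3, overlaps exon sequence of AJUBA on the same strand. Its part in the AJUBA level was not tested.

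**Figure D1:**
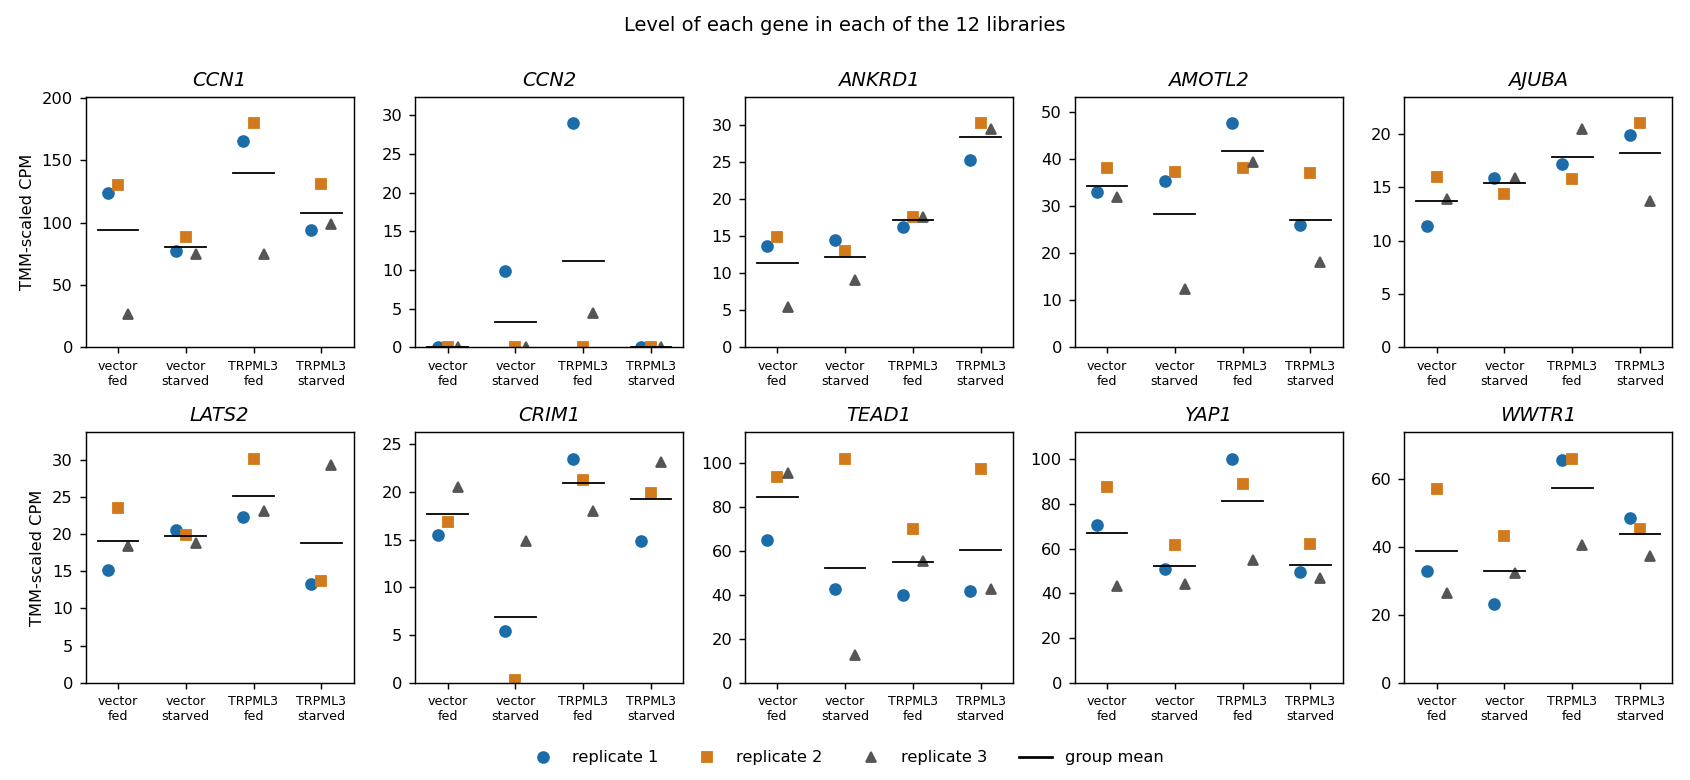
TMM-scaled CPM of each of the 10 genes (vertical axis, linear from 0) in the 4 groups of 3 libraries, with symbols for the replicate number and a line at the group mean. ANKRD1 lies higher in all 6 TRPML3 libraries than in all 6 vector libraries, CCN2 is at 0 in 9 libraries, and CRIM1 is near 0 in vector starved replicate 2.

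Library values at the floor or near zero were found for 2 of the 10 genes, CCN2 (at the floor) and CRIM1 (under 10% of its median). Of the 18030 genes tested, 2990 (16.6%) had a library under 10% of their median. CCN2, which encodes a secreted growth factor also called CTGF (ENSG00000118523, chromosome 6, 131948176 to 131951373), had 0 counts in 9 of 12 libraries. The other 3 libraries had 1206 counts (28.9 CPM, TRPML3 fed replicate 1), 403 counts (9.87 CPM, vector starved replicate 1) and 137 counts (4.47 CPM, TRPML3 fed replicate 3). No group held CCN2 in all of its libraries, and the vector fed and TRPML3 starved groups were at 0 throughout, where the floor allows at most 0.0978 CPM. CCN1, its close relative, had 944 to 6888 counts over the 12 libraries.

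Of 13535 rows that reached 100 counts in a library, 492 (3.64%) were at or under 3 counts in some library. In 9 or more libraries this held for 14 of them (0.103%). Of the 7909 rows that reached 1000 counts, 3 were at or under 3 counts in 9 or more libraries. These were CCN2, HSPE1-MOB4 (4590 counts at its highest) and SRGAP2D (3085 counts), named after their values were seen. CCN2, with 1206 counts and 9 libraries at 0, meets both limits by its own values, so these counts are a description. HSPE1-MOB4 is a readthrough row that joins neighbouring genes, and SRGAP2D is a copy of a duplicated gene family. An antisense gene, AL133346.1 (ENSG00000227220), overlaps exon sequence of CCN2 in GENCODE 29. It had no row among the counts, and its part in the CCN2 counts was not tested. No fold change of CCN2 is given, since any fold would rest on the 3 libraries with counts against libraries at 0.

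CRIM1 encodes a transmembrane protein that binds bone morphogenetic proteins (ENSG00000150938, chromosome 2, 36355926 to 36551135). In vector starved cells it had 223, 10 and 659 counts in replicates 1, 2 and 3, or 5.46, 0.267 and 14.8 CPM. Replicate 2 was at 1.53% of the median of the 12 libraries, while the other 11 libraries lay between 5.46 and 23.5 CPM. Of the 9011 genes tested that have a median of at least 10 CPM, 608 (6.75%) had such a library, under 10% of their median. The end of CRIM1 overlaps FEZ2, a gene on the opposite strand with 468 to 3147 counts, and reads from the overlap cannot be told apart if strand was not used.

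To ask how TRPML3 bears on the pathway, TRPML3 libraries were set against vector libraries within each serum state and averaged over both. With a threshold of 0.05 on p adjusted over all genes by edgeR's quasi-likelihood test, none of the 10 genes passed in fed cells, in starved cells or on average, where 0.0111%, 0.00555% and 0.0111% of 18030 genes passed. On average 8 of the 9 genes other than CCN2 had a log2 fold change above 0, with a median of 0.31 beside -0.01 for all genes tested. Of all genes tested 48.1% were above 0. The 9 genes share the same libraries, so their signs are not independent. By unadjusted p under 0.05 the count was 1 of 10 on average, beside 2.62% of all genes, and 1 of 10 each in fed cells, beside 2.21%, and in starved cells, beside 2.2%. That gene was ANKRD1 on average and in starved cells, and CCN2 in fed cells.

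ANKRD1, a nuclear ankyrin repeat protein and a classical YAP target (ENSG00000148677, chromosome 10, 90912096 to 90921276), was the gene of the 10 whose 6 vector and 6 TRPML3 libraries did not overlap. It had 13.7, 14.9 and 5.48 CPM in vector fed replicates 1, 2 and 3 and 14.5, 12.9 and 9.05 CPM in vector starved ones. In TRPML3 fed libraries it had 16.3, 17.7 and 17.6 CPM and in TRPML3 starved libraries 25.3, 30.2 and 29.5 CPM. The lowest TRPML3 library (16.3 CPM) was above the highest vector library (14.9 CPM), and the TRPML3 starved group lay above every other library.

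The average log2 fold change of ANKRD1 with TRPML3 was 0.91 ± 0.25 SE (95% interval 0.36 to 1.46), and it did not pass edgeR's quasi-likelihood test (unadjusted p = 0.00408, adjusted p = 1.00). Separation of all 6 from all 6 libraries upwards was found for 11 of 18030 genes (0.061%), and of the 10 genes here for ANKRD1 only. In the DESeq2 Wald test its adjusted p was 0.178, the lowest of 24 alternatives whose highest was 1.00. In starved cells the log2 fold change was 1.22 ± 0.35 (unadjusted p = 0.00575, adjusted p = 1) and in fed cells 0.59 ± 0.35 (adjusted p = 1), both by the same quasi-likelihood test. The difference between these, the interaction, was 0.63 ± 0.50 (adjusted p = 1.00). Without vector fed replicate 3, in which ANKRD1 was lowest, the fold change in fed cells was 0.26 on the log2 scale and that on average 0.74.

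**Figure D2:**
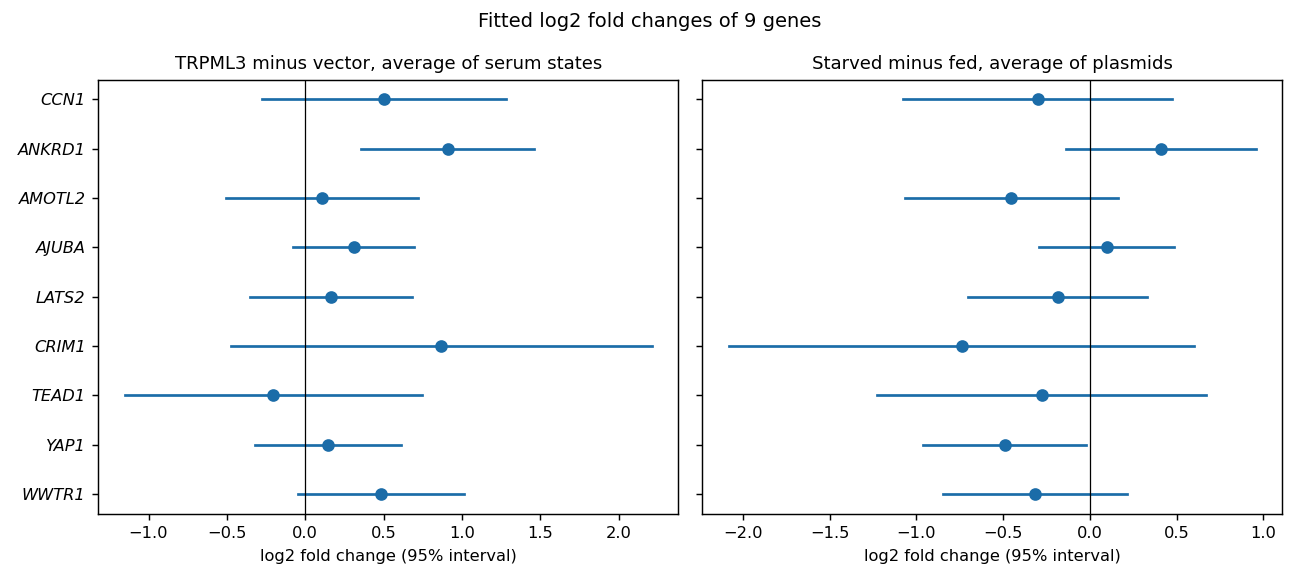
Fitted log2 fold changes (horizontal axis) of 9 genes with their 95% intervals, for TRPML3 against vector averaged over serum states (left) and for starved against fed averaged over plasmids (right). On the left the interval of ANKRD1, 0.36 to 1.46, lies above 0, and on the right that of YAP1, -0.96 to -0.02, lies below it. CCN2 is left out because it was at 0 in 9 libraries, and none of the intervals is adjusted for the number of genes.

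CCN1 (ENSG00000142871, chromosome 1, 85580761 to 85583962) varied most between fed libraries. It had 124, 130 and 27.1 CPM in vector fed replicates 1, 2 and 3, and 165, 179 and 75.0 CPM in TRPML3 fed ones. In starved cells it had 77.3, 88.5 and 74.6 CPM with vector and 93.9, 131 and 98.5 CPM with TRPML3. In the starved state the groups did not overlap, a separation upwards that 3.02% of all genes tested showed, and in the fed state they did. With TRPML3 the log2 fold change was 0.50 ± 0.35 on average (95% interval -0.27 to 1.28, adjusted p = 1.00), and CCN1 was higher in 6 of 6 differences between libraries of equal number, as were 2.06% of all genes. Over all genes, deviations from group means correlated weakly between plasmids at equal numbers, at r = 0.11 to 0.33 in fed and 0.095 to 0.32 in starved libraries. These 6 differences are therefore a description. In fed cells it was 0.58 ± 0.50 (adjusted p = 1), and 0.14 without vector fed replicate 3.

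WWTR1, the coactivator TAZ, was also higher with TRPML3 in 6 of 6 such differences, with a log2 fold change of 0.49 ± 0.24 on average (95% interval -0.04 to 1.01, adjusted p = 1.00). Its levels were 32.9, 57.2 and 26.5 CPM in vector fed, 65.5, 66.0 and 40.7 in TRPML3 fed, 23.1, 43.3 and 32.3 in vector starved and 48.6, 45.2 and 37.3 CPM in TRPML3 starved replicates 1, 2 and 3. The groups overlapped in both serum states. YAP1 itself differed less, at 0.15 ± 0.21 (95% interval -0.32 to 0.61), and was higher in 5 of 6 such differences.

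Some of the genes regulate YAP, and of these AMOTL2 and LATS2 were also counted among its targets. AMOTL2 is an angiomotin that holds YAP at cell junctions. It had 33.0, 38.0 and 32.0 CPM in vector fed and 47.5, 38.2 and 39.3 CPM in TRPML3 fed libraries. These did not overlap, although they touched at 38.0 and 38.2 CPM in the libraries numbered 2, and 3.22% of all genes showed a separation upwards in fed cells. In starved cells AMOTL2 had 35.3, 37.1 and 12.3 CPM with vector and 26.0, 36.9 and 18.1 CPM with TRPML3, which overlapped. AJUBA, a LIM protein that restrains LATS kinases, ran from 11.4 to 16.0 CPM in the 6 vector libraries and from 13.7 to 21.0 CPM in the 6 TRPML3 libraries, with a log2 fold change of 0.31 ± 0.18 on average (adjusted p = 1.00). LATS2, the kinase that inhibits YAP, had a log2 fold change of 0.16 ± 0.23, and its level in TRPML3 starved libraries was split between 13.2 and 13.7 CPM in replicates 1 and 2 and 29.4 CPM in replicate 3.

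The CRIM1 comparison turned on the library near zero. In starved cells the TRPML3 libraries had 14.9, 19.9 and 23.1 CPM and all lay above the vector libraries, as in 3.02% of all genes, but touched vector starved replicate 3 (14.8 CPM). The log2 fold change was 1.49 ± 0.87 (adjusted p = 1). Without vector starved replicate 2 it was 0.93, and without replicate 3 of that group 2.75. TEAD1, the transcription factor, was the only gene of the 9 with an average below 0, at -0.20 ± 0.43, and its libraries ranged from 12.6 to 102 CPM with groups that overlapped in both serum states. The lowest of them was vector starved replicate 3.

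Withdrawal of serum was followed by comparing starved with fed libraries, within each plasmid and averaged over both. No member passed in edgeR's quasi-likelihood test, where 0.00555% of genes passed in vector cells, 0% in TRPML3 cells and 0% on average. On average 7 of the 9 genes other than CCN2 had a log2 fold change below 0, with a median of -0.30 beside 0.0062 for all genes tested. Of all genes tested 50.7% were above 0. At an unadjusted p under 0.05 there was 1 of the 10 on average, beside 9.45% of all genes, 1 in TRPML3 cells (CCN2), beside 5.71%, and 0 in vector cells, beside 4.44%. These contrasts use the same 12 libraries as those for TRPML3, so the values of both are not independent.

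YAP1 (ENSG00000137693, chromosome 11, 102110461 to 102233423) was the gene at an unadjusted p under 0.05 for average starvation. Its levels were 70.6, 87.4 and 43.2 CPM in vector fed replicates 1, 2 and 3 and 50.7, 61.8 and 44.2 CPM in vector starved ones. With TRPML3 they were 100, 88.9 and 54.9 CPM fed and 49.6, 61.9 and 47.0 CPM starved. Replicate 3 was low in both fed groups, and fed and starved libraries overlapped with either plasmid. The log2 fold change was -0.49 ± 0.21 SE (95% interval -0.96 to -0.02, unadjusted p = 0.0409, adjusted p = 0.498 in the quasi-likelihood test).

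For CCN1, YAP1, WWTR1 and CRIM1, starved libraries were below fed ones in 4 of 4 differences within numbers 1 and 2, as they were for 18% of all genes. For CCN1 the log2 differences within these numbers lay between -0.81 and -0.46, but in those numbered 3 they were 1.44 with vector and 0.39 with TRPML3. YAP1 had -1.01 to -0.48 in the first 4 differences and 0.03 and -0.22 in those numbered 3. For WWTR1 the values were -0.54 to -0.40, and 0.28 and -0.12. CRIM1 had -4.50 to -0.09, with the library near zero at the low end, and -0.46 and 0.36 within number 3. The libraries numbered 3 are those with 4.83 to 5.70% mitochondrial counts, and the part of this in the differences was not tested. Over all genes, deviations from group means had r between -0.076 and 0.0075 for fed against starved libraries of equal number. Numbers were thus not taken as pairing them, although the mitochondrial share went with the number. These differences are a description.

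**Figure D3:**
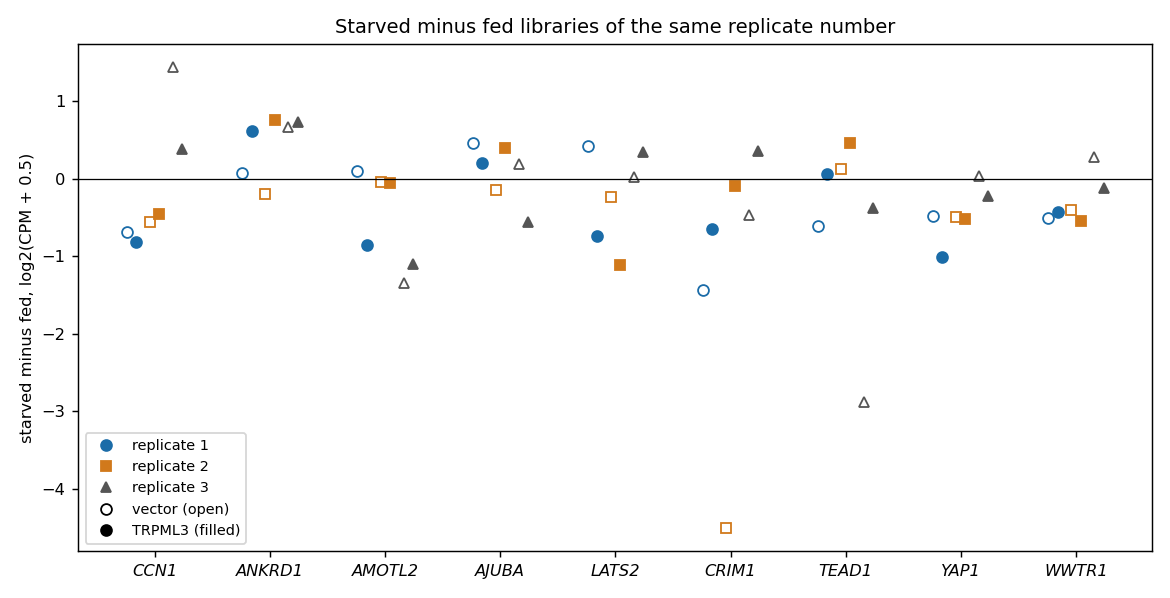
Starved minus fed, as log2(CPM + 0.5), for libraries of the same replicate number (vertical axis), with open symbols for vector and filled symbols for TRPML3. For CCN1 the 4 differences of replicates 1 and 2 lie between -0.81 and -0.46 and both of replicate 3 lie above 0, and for CRIM1 1 point stands far below the rest at -4.50, from the library near zero.

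With replicate 3 left out of all groups, 4.49% of 18052 genes passed for average starvation, and still 0 of the 10. CCN1 then had a log2 fold change of -0.61 ± 0.14 (adjusted p = 0.0657 in the quasi-likelihood test, with a range of 0.0657 to 1.00 over 24 alternatives) and YAP1 one of -0.62 ± 0.15 (adjusted p = 0.0760, range 0.0760 to 1.00). With all libraries the fold change of CCN1 was -0.30 ± 0.35 (adjusted p = 0.853), and without vector fed replicate 3 alone it was -0.52. Without replicate 1 in all groups it was -0.05, and without replicate 2 it was -0.15.

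ANKRD1 and AJUBA were the 2 of these 9 genes with an average log2 fold change above 0 under starvation, at 0.41 ± 0.25 (adjusted p = 0.664) and 0.10 ± 0.18 (adjusted p = 0.922). For ANKRD1 with TRPML3 the starved libraries (25.3 to 30.2 CPM) all lay above the fed ones (16.3 to 17.7 CPM), with a log2 fold change of 0.72 ± 0.35 (adjusted p = 0.869), and 5.56% of all genes showed such a separation upwards. With vector the fold change was 0.10 ± 0.35, and the groups overlapped. MCOLN3 also differed between the fed and starved TRPML3 libraries, and its part in these values was not tested. AMOTL2 was the gene separated downwards in TRPML3 cells, at 26.0, 36.9 and 18.1 CPM starved against 47.5, 38.2 and 39.3 CPM fed, with a log2 fold change of -0.62 ± 0.39 (adjusted p = 0.90), and 5.66% of all genes were separated in that direction. In vector cells CRIM1 was separated downwards, with -1.36 ± 0.87 (adjusted p = 1.00), beside 4.57% of all genes, and without vector starved replicate 2 its fold change was -0.80, and without replicate 3 of that group -2.62. TEAD1 had 65.0, 93.6 and 95.5 CPM in vector fed and 42.7, 102 and 12.6 CPM in vector starved libraries, with -0.69 ± 0.61, -0.22 without vector starved replicate 3 and -1.61 without replicate 2 of that group. LATS2 had an average fold change of -0.19 ± 0.23 on the log2 scale.

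The interaction, whether TRPML3 altered the response to serum withdrawal, passed for none of the 10 genes or of all genes (0%), with 2.07% of all genes at an unadjusted p under 0.05. Of the 10, CCN2 alone was under that value (unadjusted p = 0.0150, adjusted p = 1.00). In the DESeq2 Wald test CCN2 passed here (adjusted p = 1.84e-12), where 0.124% of all genes did. It also passed for TRPML3 in the fed state (5.75e-06, beside 0.144% of genes) and the starved state (6.90e-05, beside 0.16%), and for starvation with vector (5.14e-05, beside 0.198%) and with TRPML3 (1.31e-05, beside 0.36%). The calls for starvation with vector and for TRPML3 in the starved state rest on 1 library with counts, vector starved replicate 1. Those for TRPML3 in the fed state and for starvation with TRPML3 rest on TRPML3 fed replicates 1 and 3. Only the interaction draws on all 3 libraries with counts.

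How the genes varied together was measured by correlating log2 CPM over the 12 libraries for the 36 pairs among the 9 genes other than CCN2. No share over all gene pairs was computed as a background. Pearson's r was positive in 31 of the 36 pairs, and 3 of them passed an adjusted p of 0.05 over the 36, in permutation tests. The strongest was CCN1 with YAP1, the target with the coactivator (r = 0.78, adjusted permutation p = 0.0270, unadjusted 0.00075; Spearman's rho = 0.85, adjusted 0.0277, unadjusted 0.00077). Without the 2 libraries farthest from the median of CCN1, r was 0.84. Within the 6 vector libraries it was 0.80, within the 6 TRPML3 libraries 0.87, within the 6 fed ones 0.94 and within the 6 starved ones 0.60. A replicate number holds 4 libraries, too few for a value within it.

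**Figure D4:**
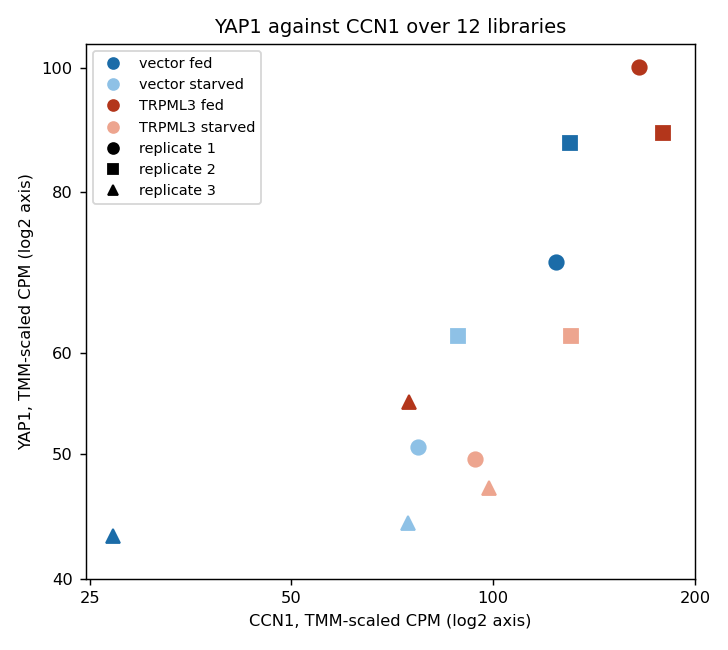
YAP1 against CCN1 in TMM-scaled CPM, both on log2 axes, with 1 point per library, colours for the 4 groups and shapes for the replicate number. Both genes are lowest in vector fed replicate 3 (27.1 CPM of CCN1, 43.2 CPM of YAP1), and the 4 fed libraries numbered 1 and 2 have the highest YAP1.

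WWTR1 varied with both: r was 0.74 with CCN1 (adjusted permutation p = 0.0463, unadjusted 0.00386; rho = 0.80, adjusted 0.0384, unadjusted 0.0032) and 0.78 with YAP1 (adjusted permutation p = 0.0463, unadjusted 0.00363; rho = 0.74, adjusted 0.0711, unadjusted 0.0079). Without the 2 farthest libraries these were 0.68 and 0.59. AMOTL2 with YAP1 passed by rho (0.80, adjusted permutation p = 0.0384) and not by r (0.66, adjusted p = 0.133). CCN1 with ANKRD1 had r = 0.65 (adjusted permutation p = 0.157; rho = 0.59, adjusted 0.270), with 0.92 within vector but -0.30 within TRPML3 libraries, so this relation did not hold in both. Libraries of different groups and shared numbers enter each value, and these relations describe the libraries. The levels were not adjusted for group or number, so differences between these enter the permutation p-values too. SLCO5A1, the gene most like CCN1 among 14121, had r = 0.96 with CCN1, above the 0.78 of YAP1. The pairs that passed are therefore not shown to stand out from other genes.

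The genes whose log2 CPM over the 12 libraries was most like that of CCN2, by Pearson's r among 14121 genes at a mean of at least 1 CPM, were CACNB4 (r = 0.88, rho = 0.72), PCTP (0.86, 0.72), SSX2IP (0.76, 0.73), C18orf54 (0.75, 0.62) and CUTC (0.74, 0.69). None of these was at the floor in any library, so they match the 3 libraries with counts and not the zeros. For CCN1, added after its values were seen, the genes most like it included SLCO5A1 (r = 0.96, rho = 0.92), HHIP (0.94, 0.87), DLL4 (0.94, 0.84) and TMEFF2 (0.93, 0.93). HHIP binds hedgehog ligands and DLL4 is a Notch ligand. These are among the highest of 14121 values and carry no test.

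Of 3 lists of other genes of the pathway, no gene passed in any of the 7 contrasts. The 16 other YAP targets had 10 fold changes below 0 and 6 above for average starvation, with a median of -0.22. F3, tissue factor, had -1.04 ± 0.31 (3.78 ± 1.99 CPM in vector fed, 1.94 ± 0.776 in vector starved, 3.87 ± 0.502 in TRPML3 fed and 1.78 ± 0.382 in TRPML3 starved, SD, n = 3), and the receptor tyrosine kinase AXL, at 0 to 1.17 CPM, had -1.55 ± 0.58. FJX1, a secreted protein, had 1.20 ± 0.31, with 2.96 ± 1.64 CPM in vector fed, 6.46 ± 1.11 in vector starved, 2.72 ± 1.09 in TRPML3 fed and 6.53 ± 1.62 CPM in TRPML3 starved libraries. NT5E, an ectonucleotidase with 0 to 0.695 CPM, had 1.27 ± 1.02, and 0.65 without TRPML3 starved replicate 3. The adjusted p of FJX1 was 0.349 and that of F3 0.363. With TRPML3, on average, 8 of these targets were above 0 and 8 below (median 0.0032).

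The Hippo kinases and adaptors, 24 genes, were evenly split for average starvation (12 above 0 and 12 below, median -0.05), and likewise for average TRPML3 (12 and 12, median 0.0061). TAOK2, an upstream kinase, had the highest value for starvation (0.70 ± 0.52), followed by DCHS1, an atypical cadherin (0.58 ± 0.36). Each rested on 1 library: without TRPML3 starved replicate 1, at 112 CPM, TAOK2 had -0.12, and without TRPML3 starved replicate 3, at 4.17 CPM, DCHS1 had 0.14. WTIP, a LIM protein of the AJUBA family at 0 to 1.44 CPM, had the lowest (-2.31 ± 1.29), with -1.50 without vector fed replicate 3 and -3.96 without TRPML3 starved replicate 3. MAP4K5, a kinase, had -1.71 ± 0.74, but -0.22 without vector fed replicate 3, which had 65.5 CPM against 1.46 to 4.80 CPM in the other 11 libraries.

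Of the TEAD and VGLL genes, 6 of 7 were tested, and VGLL1 had 0 CPM in every library. For average starvation 5 were below 0 and 1 above (median -0.41), and for average TRPML3 all 6 had values above 0 (median 0.27). Of all genes tested 50.7% and 48.1% were above 0 in these contrasts. TEAD3 was at 6.55 ± 1.68 CPM in vector fed and 1.16 ± 1.41 CPM in vector starved libraries (SD, n = 3). With TRPML3 it had 6.81 ± 0.773 CPM fed and 4.58 ± 1.67 CPM starved. Its log2 fold change for average starvation was -1.54 ± 0.51 (unadjusted p = 0.0123, adjusted p = 0.391 in edgeR's test). This was -2.41 without vector starved replicate 2, -1.30 without replicate 3 of that group and -1.19 without replicate 1 in all groups. VGLL2, a cofactor of TEAD, had -0.93 ± 0.42, and -0.62 without vector fed replicate 1. TEAD4 had 0.04 ± 0.67 and TEAD2 -0.00098 ± 0.41, and both changed sign with single libraries left out.

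With replicate 3 left out of all groups, 3 of the 46 tested genes of these lists passed for average starvation in edgeR's quasi-likelihood test, 1 higher and 2 lower, beside 2.54% of all genes higher and 1.94% lower. The lower ones were GADD45A, a stress response gene (-1.09 ± 0.10, adjusted p = 0.0248), and FRMD6, a Hippo scaffold (-0.99 ± 0.12, adjusted p = 0.0259). FJX1 was higher (1.74 ± 0.27, adjusted p = 0.0324). That fit has 2 libraries per group.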

How the data were processed

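RNA of 12 HEK293T libraries was sequenced after enrichment for polyadenylated RNA. The authors deposited whole-number counts per gene row and a second table of normalized signal, which equals the count divided by a constant per library. Per the submitters' processing notes, GRCh38, FastQC, fastp, HISAT2, StringTie and DESeq2 were used. Their roles, versions, annotation and use of strand are not given in the sources used here. If StringTie made the counts, they are estimates from coverage, and reads of overlapping genes may be split between rows.

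Counts were tested with edgeR 4.0.16 in R 4.3.3: TMM, filterByExpr on group, a robust quasi-likelihood fit of the 4 groups over 12 libraries, and p-values adjusted by Benjamini-Hochberg over 18030 genes at 0.05. Standard errors come from the fold change and F. DESeq2 1.42.0 and limma 3.58.1 (limma-trend on the log2 of the deposited normalized signal + 1) were alternatives.

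The genes and lists were chosen with earlier results of these data known. All 10 genes are named; list genes are the 2 highest and 2 lowest for average starvation, and those called without replicate 3, named after their values were seen. A further list and 1 gene like CCN1 are not reported here. Near zero means under 10% of the median over libraries, and at the floor means 3 counts or fewer. CCN2, with a median of 0, was flagged by the floor, and CRIM1 by its median. The p-values of the contrasts set a difference against the spread between these replicates. The permutation p-values of the correlations come from shuffling all 12 libraries.

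Deviations from group means over 18030 genes correlated between equal replicate numbers at r = 0.11, 0.15 and 0.33 (vector and TRPML3, fed), at 0.13, 0.095 and 0.32 (starved), and between -0.076 and 0.0075 for fed against starved. Numbers thus went weakly together between plasmids, alike in both serum states, and were not taken as pairing fed with starved libraries. The lowest chi-square per degree of freedom among the 66 library pairs was 139.2, so every library was counted as its own sample.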

Additional observations from a re-analysis of the deposited data

How the results depend on the processing

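The alternatives were set with earlier results known. With the DESeq2 Wald test 1 of the 10 genes, CCN2, was called in the interaction and in the 4 contrasts within 1 plasmid or 1 serum state, where edgeR called 0; the cause was not tested. With the replicate block 0 of the 10 passed in each of the 7 contrasts, as without it, and it changed no other call. All other alternatives left the 7 counts at 0, also when 1 of the 12 libraries or 1 of the 3 replicate numbers was dropped (15 fits), so these counts range from 0 to 0; without replicate 1 in all groups CCN2 was under the filter and 9 of the 10 were tested. Library size only reversed the log2 fold change of AJUBA for starvation in TRPML3 cells (-0.0407) and of YAP1 for TRPML3 in starved cells (-0.0874). Limma-trend reversed CCN1 for starvation in vector cells (0.0794), AJUBA for starvation in TRPML3 cells (-0.00392) and AMOTL2 for TRPML3 in starved cells (0.0298). Leaving out libraries reversed 22 of 63 log2 fold changes in at least 1 of the 15 fits, none of them called, with these ranges. For average starvation they were -0.026 to 0.24 for AJUBA, -0.44 to 0.062 for LATS2 and -0.86 to 0.12 for TEAD1. For interaction they were -0.51 to 0.16 for AJUBA, -0.70 to 0.024 for AMOTL2, -0.46 to 0.29 for CCN1 and -0.54 to 0.095 for WWTR1. For starvation in TRPML3 cells they were -0.18 to 0.32 for AJUBA, -0.36 to 0.13 for CRIM1 and -0.38 to 0.35 for TEAD1. For TRPML3 in starved cells they were -0.42 to 0.18 for AMOTL2, -0.58 to 0.15 for LATS2, -0.31 to 1.13 for TEAD1 and -0.11 to 0.16 for YAP1. For average TRPML3 they were -0.072 to 0.23 for AMOTL2, -0.075 to 0.27 for LATS2 and -0.46 to 0.26 for TEAD1. For starvation in vector cells they were -0.53 to 0.081 for AMOTL2, -0.23 to 0.34 for ANKRD1, -0.66 to 0.086 for CCN1, -0.13 to 0.23 for LATS2 and -0.49 to 0.15 for WWTR1.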
